A study of Mus musculus with 4 samples.

Results

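The mitochondrial ribosome translates the few proteins that mitochondrial DNA encodes, all of them subunits of the respiratory chain and ATP synthase. Its own proteins are encoded in the nucleus, made in the cytosol and imported, and they assemble with mitochondrial rRNA into a small subunit that decodes the message and a large subunit that joins amino acids. Many of these proteins have a counterpart in bacterial ribosomes and others are found only in mitochondria. Fat cells make more mitochondria as they differentiate, which is the setting in which these genes are usually followed in this tissue.

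The genes described here are those with an Mrpl (large subunit) or Mrps (small subunit) symbol and a number. Each was read from its brightest probe and kept where that probe was flagged as well above background on all 4 arrays. This gave 76 genes, all 76 that the symbols match, of 34795 gene names on the array, 18253 of which passed the same filter. Of the 76, 74 had a RefSeq accession, and all 74 carried the same symbol there. The probes lie on 17 chromosomes, and their signals ran from 209 to 33297 intensity units. When all genes were split by signal into 3 groups of equal size, 0 members lay in the dimmest group, 16 in the middle one and 60 in the brightest. Among the members, 30 were large-subunit proteins with a bacterial counterpart and 19 were large-subunit proteins specific to mitochondria. The small subunit had 16 proteins with a bacterial counterpart and 10 specific to mitochondria. Mrps18a and Mrps30 were counted with the large subunit, where their proteins sit despite the symbols. Mrps36 was left out of the subunit lists, since its protein is now known as a part of the oxoglutarate dehydrogenase complex.

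The cells were 3T3-L1, a mouse fibroblast line that was first differentiated into adipocytes in culture. For 7 days they then received PBS, 25 µM daidzein (an isoflavone of soy), 100 µg/ml PT (an extract of pig testis) or daidzein+PT. There was 1 array for each of the 4 groups, of 60-base probes hybridized with Cy3-labelled RNA alone, so no difference between groups has a replicate check, and the labels do not say whether RNA from several cultures was combined. The series was made to ask about adiponectin, a hormone secreted by fat cells. On each array 62976 spots were read, between 49.7% and 51.4% of the non-control spots were well above background, and 0 were saturated. All 10 adipocyte markers were well above background on every array, as were 9 of 9 fibroblast and preadipocyte markers. Of the markers of other cell types, 4 of 7 for macrophages (Cd68, Itgam, Csf1r and Cd14), 2 of 6 for skeletal muscle (Acta1 and Des) and 2 of 7 for testis (Cyp17a1 and Prm1) were well above background on every array. Ptprc, Emr1 and Lyz2 of the first list, Myod1, Myog, Ckm and Myh3 of the second and Star, Cyp11a1, Ddx4, Dazl and Tnp1 of the third were not. The summed signal of the macrophage list ran from 29.4 to 31.8 times the array's 75th percentile, that of the muscle list from 0.74 to 0.99 and that of the testis list from 5.4 to 6.29. Des, a muscle gene, was 1.74 higher on the log2 scale with both agents than with PBS; its part in the results was not tested. Slide positions were read from the names of the scans, and the sample labels used here do not give them. By these names both arrays without PT were in row 1 (PBS in column 3, daidzein in column 4). Both arrays with PT were in row 2 (PT in column 1, daidzein+PT in column 2), so the extract and the slide row cannot be told apart.

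A level is given on the log2 scale, relative to the 75th percentile of its array, and a difference is between the levels of 1 gene on 2 arrays. Differences were taken before rounding. The spread of such a difference was estimated from all genes of like signal, as the SD over genes of the departure from additivity scaled to 2 arrays. It was 0.11 for the brightest group of genes, 0.14 for the middle group and 0.33 for the dimmest group, which held 0 members. Des and Ppargc1b, which are not members, had lower levels than every member on each array, so the members' spreads need not hold for them. Counts used a fold of 1.2, which is 0.26 on the log2 scale, and a fold of 2.

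The members were highest together on the daidzein+PT array. Of the 76, 66 had their highest level there, against 29.5% of all genes and 35.7% of the brightest group. On the PT array 45 had their lowest, against 24.4% and 30.4%. Relative to each gene's own mean, the median member stood at -0.07 on PBS, 0.01 on daidzein, -0.11 on PT and 0.17 on daidzein+PT. On daidzein+PT 73 members were above their own mean, compared with 47 on daidzein, 13 on PBS and 7 on PT. The low levels on PT depended on the scaling. With spike-in scaling 73 of 76 members were higher on PT than on PBS, and after cyclic loess 41 were.

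**Figure D1:**
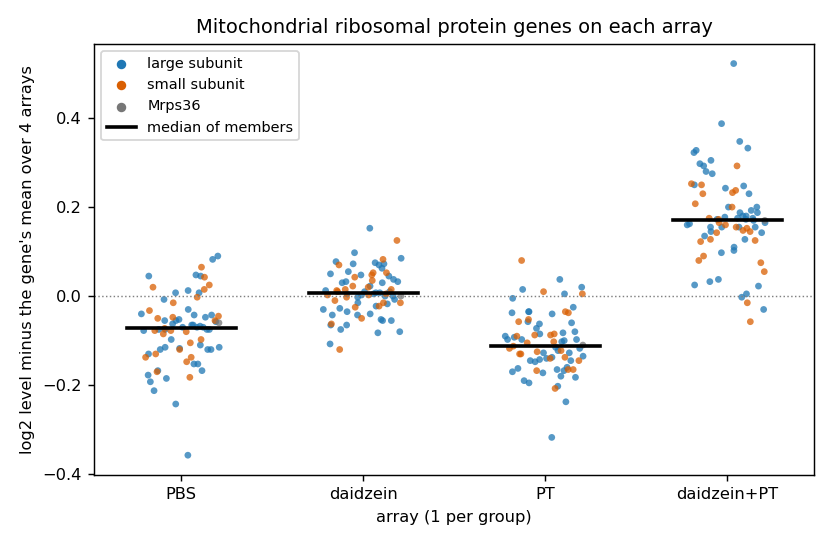
Level of each of the 76 genes on each array minus its mean over the 4 arrays (log2, vertical axis), with 1 point per gene and array, coloured by ribosomal subunit, and the median of the members as a black bar. With the reported scaling the median stands at 0.17 on the daidzein+PT array and at -0.11 on the PT array.

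With daidzein alone, 59 of the 76 were above their PBS level (44.5% of all genes) and the median difference was 0.09, against -0.03 over all genes. Only Mrpl12 and Mrpl16 reached 1.2-fold higher (2 of 76, compared with 10.6% of all genes), so that the members shifted by small amounts. With PT alone 26 of 76 were above PBS (34.2%, against 44.0% of all genes and 32.6% of the brightest group). The median was -0.04, against -0.02 over all genes and -0.04 over the brightest group, and 0 members reached 1.2-fold higher (8.73%). That direction depended on the scaling: 73 of 76 members lay above PBS when arrays were scaled on spike-in probes, which also moved the median of all genes from -0.02 to 0.12, and 41 of 76 after cyclic loess. With both agents, 69 of 76 were above PBS (44.9% of all genes), the median was 0.23 against -0.03 and 29 reached 1.2-fold higher (15.7% of all genes and 12.7% of the brightest group).

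Added to daidzein, PT went with higher levels of 71 of 76 members (51.9% of all genes), a median of 0.17 against 0.01, and 8 members at 1.2-fold higher (10.8%). Daidzein added to PT went with higher levels of 72 of 76 (48.0%), a median of 0.29 against -0.01, and 45 members at 1.2-fold higher (15.3% of all genes and 14.8% of the brightest group). The counts at 1.2-fold depended on the scaling more than the medians did. With spike-in scaling they were 51 for both agents over PBS, 28 for PT added to daidzein and 22 for daidzein added to PT, and quantile scaling gave 27 for the last. Read from its brightest probe, no member was 1.2-fold or more lower in any of the 5 comparisons. Of all genes, 11.3% were so with daidzein alone, 5.06% with PT alone and 15.5% with both against PBS. The corresponding shares were 7.15% for PT added to daidzein and 14.8% for daidzein added to PT. Some dimmer probes did reach 1.2-fold lower: for daidzein added to PT, those of Mrps2 and Mrpl41 gave -0.69 and -0.48. A difference of 2-fold in either direction was reached by 0 members in any comparison. Of all genes, 1.41% did so with daidzein, 0.762% with PT, 2.93% with both, 0.898% for PT added to daidzein and 2.63% for daidzein added to PT.

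**Figure D2:**
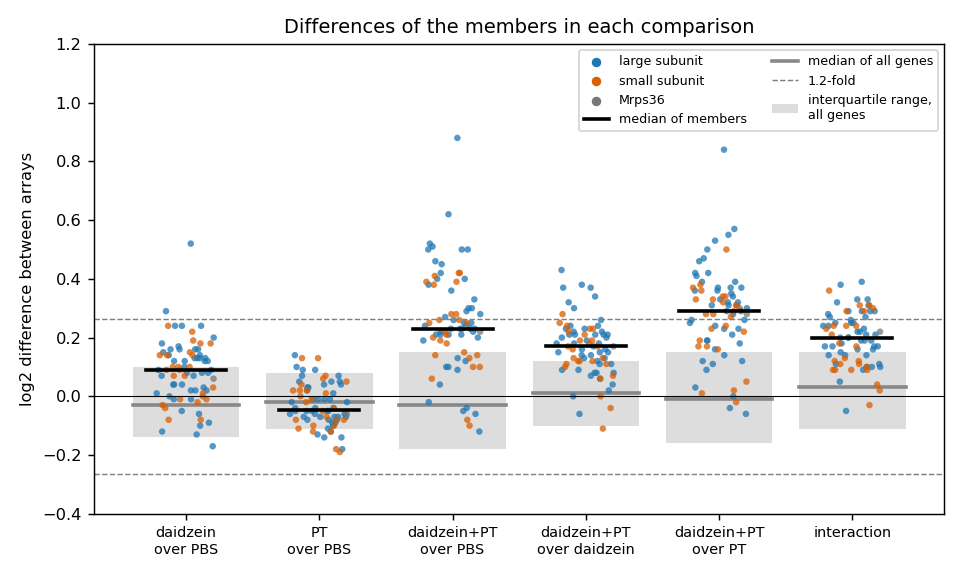
Difference of each of the 76 genes (log2, vertical axis) in the 5 comparisons and in the interaction, with 1 point per gene; black bars are medians of the members, grey bars the medians and shaded boxes the interquartile range of all 18253 genes, and dashed lines mark 1.2-fold. The members' median is 0.23 for daidzein+PT over PBS and -0.04 for PT over PBS.

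Each treatment was measured in 2 pairs of arrays that have no array in common. For daidzein, 58 of 76 members were above 0 in both pairs (30.3% of all genes) and 3 were below 0 in both (37.8%). The 3 were Mrpl23, Mrpl52 and Mrpl47. Mrpl12 and Mrpl16 were at 1.2-fold or more in both (2 of 76, against 6.32% of all genes). Across the 76 genes the differences of the first pair had a Pearson correlation of 0.80 with those of the second, and of 0.76 without Mrpl12. The points share their probes within each pair, so this is a description of 4 arrays. For PT, 26 members were above 0 in both pairs (25.5%) and 5 below 0 in both (29.7%), and the correlation was 0.46.

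**Figure D3:**
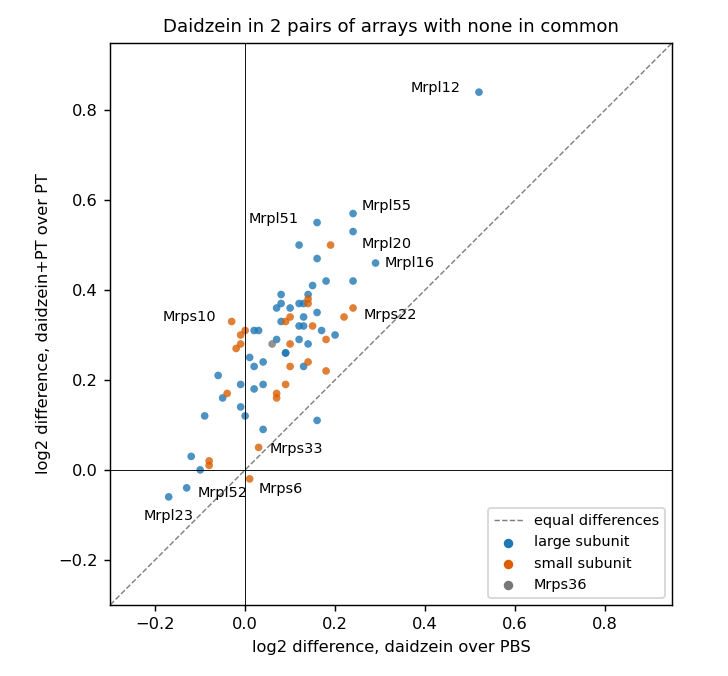
Difference with daidzein alone (horizontal axis, log2) against the difference when daidzein was added to PT (vertical axis, log2), with 1 point per gene coloured by subunit and a dashed line of equal differences. Mrpl12 stands apart at 0.52 and 0.84, and most of the members lie above the line.

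The PT difference was larger with daidzein than without it in nearly all members. This interaction, the PT difference in the presence of daidzein minus that in its absence, was above 0 in 74 of 76 members (57.2% of all genes and 71.9% of the brightest group), with a median of 0.20 against 0.03 over all genes and 0.07 over the brightest group. The median was 0.12 with quantile or spike-in scaling, 0.13 with the deposited series values, 0.14 after cyclic loess and 0.12 over the members' dimmer probes. It was 1.2-fold or more in 19 (12.3% of all genes and 7.95% of the brightest group). Mrpl51 (0.39) and Mrpl46 (0.38), both specific to the mitochondrial large subunit, and Mrps10 (0.36), a protein of the small-subunit head, had the most positive values. An interaction combines 4 arrays, so its spread is wider than the 0.11 or 0.14 given for a difference of 2 arrays. By their brightest probes, Mrpl19 (-0.05) and Mrps6 (-0.03) were the 2 members below 0, and Mrps33 followed at 0.02. With the mean over probes 69 members were above 0. Of the 28 dimmer probes 23 were above 0, and those of Mrps2 and Mrpl41 gave -0.81 and -0.54. A positive interaction was not particular to the members. It was found in 74 of 75 subunits of the respiratory chain and ATP synthase (median 0.23) and 20 of 21 genes of the protein import list (0.18). The cytosolic ribosomal proteins had it in 75 of 79 (0.14), and the regulators of mitochondrial biogenesis in 5 of 10 (0.01). By the positions in the scan names, the interaction sets columns 2 and 3 against columns 1 and 4. With 1 array per group it was not tested.

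An additive fit of both treatments was made over all 18253 genes (limma with a trend on signal, p adjusted by Benjamini-Hochberg, threshold 0.05). It called 33 of 76 members higher with daidzein (9.96% of all genes) and 0 lower (8.56% of all genes; at an unadjusted p under 0.05, 46 members were higher and 0 lower). For PT it called 1 member higher, Mrpl18 (3.56% of all genes), and 0 lower (0.888%; unadjusted, 10 higher and 0 lower). The fit has 1 residual degree of freedom, so these calls rest on the spread borrowed from other genes of like signal. Without the intensity trend limma called 0 members for either treatment (unadjusted, 16 for daidzein and 1 for PT), and with spike-in scaling 9 for daidzein.

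Adipocyte markers moved in the same comparisons. All 10 were above PBS with daidzein (median 2.39), PT (1.09) and both (3.11). Their summed signal, in units of the array's 75th percentile, was 146 on PBS, 608 on daidzein, 276 on PT and 982 on daidzein+PT. The fibroblast and preadipocyte sum was 1378, 1179, 1363 and 1212 in the same order. The order of the arrays by adipocyte markers (PBS, PT, daidzein, daidzein+PT) therefore differed from that by the median member, in which PT was lowest. That difference depended on the scaling, since the members' median for PT over PBS was 0.10 with spike-in scaling and 0 after cyclic loess. The part of differentiation in the members' levels was not tested, and in bulk RNA fewer cells of a type and less RNA per cell cannot be told apart.

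The stalk of the large subunit recruits translation factors, and it held the member with the largest differences with daidzein alone, with both agents over PBS and for daidzein added to PT. Mrpl12, whose protein forms the stalk as the counterpart of bacterial L7/L12, had levels of 4.43 on PBS, 4.94 on daidzein, 4.47 on PT and 5.31 on daidzein+PT. Both arrays with daidzein were thus above both without it, and PT alone was close to PBS. The differences were 0.52 with daidzein (1.43-fold), 0.04 with PT, 0.88 with both (1.84-fold), 0.37 for PT added to daidzein and 0.84 for daidzein added to PT. All but that with PT alone exceeded the spread of 0.11. In the additive fit the daidzein effect was 0.68 ± 0.07 (SE), with an adjusted p of 7.25e-18 from limma, and the PT effect was 0.20 ± 0.07 with an adjusted p of 0.118. Its only probe, with 1 spot on each array, lies at chr11:120349740-120349799 (mm9, from the array files).

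Mrpl10, the protein that anchors the stalk, was at 2.35 on PBS, 2.50 on daidzein, 2.28 on PT and 2.75 on daidzein+PT. It was called higher with daidzein (0.31 ± 0.07 SE, limma adjusted p 0.00018), and its second probe gave 0.35 for both agents over PBS where the first gave 0.40. Mrpl11, at the base of the stalk, and Mrpl53 and Mrpl54 differed by 0.23, 0.25 and 0.10 with both agents. The median of these 5 genes was 0.25.

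The stretches of 250 bases before the start sites of 4 members are printed as examples. They come from RefSeq (GRCm38.p6), each written 5′ to 3′ on the gene's strand, with a match to a motif in capitals. Mrpl12 lies at chr11:120484387-120484636 (plus strand), Mrpl10 at chr11:97041332-97041581 (plus strand), Mrps22 at chr9:98601680-98601929 (minus strand) and Mrpl16 at chr19:11770165-11770414 (plus strand).
Mrpl12: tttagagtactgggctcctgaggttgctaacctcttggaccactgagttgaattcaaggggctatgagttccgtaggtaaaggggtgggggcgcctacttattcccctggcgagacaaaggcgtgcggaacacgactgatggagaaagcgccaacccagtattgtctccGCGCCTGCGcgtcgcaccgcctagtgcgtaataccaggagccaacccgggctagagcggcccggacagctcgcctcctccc
Mrpl10: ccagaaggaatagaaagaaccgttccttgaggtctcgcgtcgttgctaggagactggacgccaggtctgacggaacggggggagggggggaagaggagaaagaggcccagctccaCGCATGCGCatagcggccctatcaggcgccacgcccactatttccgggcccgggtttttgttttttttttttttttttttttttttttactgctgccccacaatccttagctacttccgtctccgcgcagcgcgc
Mrps22: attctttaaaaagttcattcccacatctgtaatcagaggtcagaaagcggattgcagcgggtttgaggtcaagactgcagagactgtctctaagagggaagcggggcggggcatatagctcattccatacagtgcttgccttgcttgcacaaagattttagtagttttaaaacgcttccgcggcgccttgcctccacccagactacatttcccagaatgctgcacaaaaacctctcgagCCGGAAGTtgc
Mrpl16: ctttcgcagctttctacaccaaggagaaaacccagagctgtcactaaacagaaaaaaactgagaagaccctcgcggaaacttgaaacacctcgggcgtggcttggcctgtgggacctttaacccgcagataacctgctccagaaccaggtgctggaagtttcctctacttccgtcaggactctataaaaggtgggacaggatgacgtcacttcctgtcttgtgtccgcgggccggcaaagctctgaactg

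The 3 motifs searched, on both strands and in these 250 bases only, were those of factors known for driving nuclear genes of mitochondria. They were GCGCNTGCG (NRF1-type), CCGGAAGT (ETS-type, as for GABPA) and AAGATGGC (YY1-type). The first is nearly its own reverse complement, so that some stretches match it at overlapping positions. In Mrpl12 and Mrpl10 the capitals mark the first motif, whose first base lies at -81 and -135 relative to the start site, and in Mrps22 the ETS-type motif, at -11. The window of Mrpl16 held none of the 3 motifs. A promoter was listed for 67 of the 76 members. The NRF1-type motif was in 14 of them (20.9%) and in 5.4% of all 27025 promoters, the ETS-type motif in 9 (13.4%, against 2.93%) and the YY1-type motif in 4 (5.97%, against 1.59%). At least 1 of the 3 was in 25 of 67 (37.3%), compared with 9.37% of all promoters. Most members thus had no match, among them Mrpl20 and Mrpl55, and the printed stretches hold matches more often than the members do. All promoters were counted whether or not their gene was well above background here. No share is given for expressed genes alone, so the excess cannot be called particular to the members. The members with a match had a median difference of 0.26 with both agents over PBS and those without a match 0.22. The genes of the factors themselves were close to their PBS level with both agents: Nrf1 at -0.10, Gabpa at -0.02 and Yy1 at -0.09.

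Other large-subunit proteins with a bacterial counterpart followed Mrpl12. Mrpl20, whose bacterial counterpart binds rRNA early in assembly, had levels of 5.05, 5.29, 5.15 and 5.68 on PBS, daidzein, PT and daidzein+PT, so that its 3 treated arrays were all above PBS. Its difference with both agents was 0.62 (1.54-fold), and the additive fit gave 0.39 ± 0.08 (SE, limma adjusted p 1.38e-05) for daidzein and 0.24 ± 0.08 (adjusted p 0.0534) for PT. Mrpl16, at the centre of the large subunit near the site where tRNAs bind, stood at 2.83, 3.12, 2.88 and 3.34. It differed by 0.29 with daidzein and by 0.46 when daidzein was added to PT (limma adjusted p 2.38e-06 for daidzein).

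Mrpl55, the counterpart of bacterial L31, was at 2.86, 3.10, 2.79 and 3.36 on the same arrays, lowest on PT. It was 0.24 above PBS with daidzein and 0.57 above PT with both (adjusted p 2.37e-07 for daidzein in the limma fit). Mrpl34 had 2.97, 3.21, 3.01 and 3.43, with differences of 0.24 and 0.42 in the pairs for daidzein. Mrpl1, the protein of the mobile stalk at the tRNA exit and the dimmest member, was at -0.83, -0.76, -0.69 and -0.33. Only its daidzein+PT array stood clear of the others, at 0.50 above PBS with a spread of 0.14, and it was not called for either treatment (limma adjusted p 0.225 and 0.216).

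Of the 30 large-subunit genes with a bacterial counterpart, 13 were at 1.2-fold or more with both agents and 26 above 0, with a median of 0.24. The 19 specific to mitochondria had the same median of 0.24, with 8 at 1.2-fold and 18 above 0. Mrpl51 led them, at 5.45 on PBS, 5.61 on daidzein, 5.40 on PT and 5.95 on daidzein+PT. It was 0.50 above PBS with both agents and was called for daidzein (0.36, limma adjusted p 0.000139). Mrpl44, which carries a fold related to RNase III, stood at 1.13, 1.27, 1.2 and 1.59.

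The central protuberance is the crest of the large subunit that faces the small subunit. Of its 5 listed genes, 4 were at 1.2-fold or more with both agents over PBS and the median was 0.30. Mrpl18 had levels of 2.55 on PBS, 2.70 on daidzein, 2.65 on PT and 3.07 on daidzein+PT. It was the member called for PT (0.23 ± 0.07 SE, limma adjusted p 0.028) and it was called for daidzein too (0.28, adjusted p 0.000889). The call for PT was lost under 8 of 9 alternatives (limma adjusted p from 0.00465 with no filter on dim probes to 0.641 without the trend). Mrpl46 was at 1.31, 1.43, 1.23 and 1.73, Mrpl38 differed by 0.30 with both agents, Mrpl40 by 0.27 and Mrpl48 by 0.12.

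The ring around the exit of the peptide tunnel, where the new protein meets the inner membrane, had the lowest median of the 3 groups of large-subunit proteins listed. For its 6 genes it was 0.14 with both agents over PBS, and 1 of 6, Mrpl22, was at 1.2-fold (0.29). Mrpl45, which holds the ribosome at the inner membrane, differed by 0.23 and Mrpl17 by 0.24. Mrpl24, Mrpl47 and Mrpl23 were at 0.04, -0.04 and -0.12. The groups hold 4 to 8 genes each, and the differences between them were not tested.

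Mrpl23 was the lowest member in 3 of the comparisons. It was at 4.83 on PBS, 4.66 on daidzein, 4.76 on PT and 4.71 on daidzein+PT, below PBS on all 3 treated arrays, by 0.17 at most against a spread of 0.11, and was not called (limma adjusted p 0.36 for daidzein). In RefSeq's gene order it lies on chromosome 7 between Tnnt3 and the imprinted gene H19, with Tnni2 and Lsp1 on the Tnnt3 side. These neighbours were looked at after the values were seen. With daidzein H19 was at -2.90, Tnni2 at -1.75 and Lsp1 at -0.90, against -0.17 for Mrpl23. Of all 18253 genes, 10134 were below 0 in that comparison, so a shared sign carries little. With PT alone H19 was at -0.39, Tnni2 at 0.19 and Lsp1 at 0.03, against -0.07 for Mrpl23. A part of the locus in these values was not tested.

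Mrpl52 (5.78, 5.65, 5.77 and 5.73 on PBS, daidzein, PT and daidzein+PT), Mrpl47 (2.74, 2.64, 2.70 and 2.70) and Mrpl35 (-0.52, -0.61, -0.70 and -0.58) were also below PBS with both agents, by 0.04 to 0.06. Mrpl47 depended on the probe, since its 3 dimmer probes gave 0.14, 0.32 and 0.37 with both agents where the brightest gave -0.04. Mrpl13 was at -0.02.

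In the small subunit the proteins specific to mitochondria had a median of 0.32 with both agents over PBS, with 9 of 10 above 0 and 5 at 1.2-fold. Those with a bacterial counterpart had 0.20, with 15 of 16 above 0 and 3 at 1.2-fold. Mrps34, which binds the small-subunit rRNA, had levels of 4.64 on PBS, 4.83 on daidzein, 4.57 on PT and 5.07 on daidzein+PT, and both arrays with daidzein were above both without it. It was called for daidzein (0.34, limma adjusted p 5.86e-05). Mrps22 stood at 2.04, 2.28, 2.08 and 2.44 (0.30, adjusted p 0.000457), and Mrps35 at 1.83, 2.06, 1.91 and 2.25. Mrps25 was the exception among the 10, at 4.79, 4.71, 4.69 and 4.71.

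Among the small-subunit proteins with a bacterial counterpart, Mrps7 (4.96, 5.10, 4.98 and 5.35) had the largest difference with both agents, 0.39. Mrps6, on the platform, was at 6.35, 6.36, 6.27 and 6.25 on PBS, daidzein, PT and daidzein+PT, the 2 arrays with PT being the lower ones. Its differences of -0.08 with PT and -0.11 when PT was added to daidzein did not exceed the spread of 0.11. Mrps14 (0.13 and 0.21 in the 2 pairs for PT) and Mrps28 (0.13 and 0.22) were above 0 in both and were not called for PT (limma adjusted p 0.239 and 0.222). Mrps14 also depended on the probe: its dimmer probes gave -0.04 and -0.14 with both agents where the brightest gave 0.28. Mrps27, Mrpl19 and Mrpl24 were below 0 in both pairs for PT, by 0.08 at most. The 8 genes of the head had a median of 0.25 with both agents and the 4 of the platform 0.18.

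There are 3 genes that descend from the bacterial gene of S18, and only the product of Mrps18c sits where the bacterial protein does. Mrps18a, Mrps18b and Mrps18c were at 0.33, 0.26 and 0.28 with both agents over PBS, differences that lay within 0.11 of each other.

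**Figure D4:**
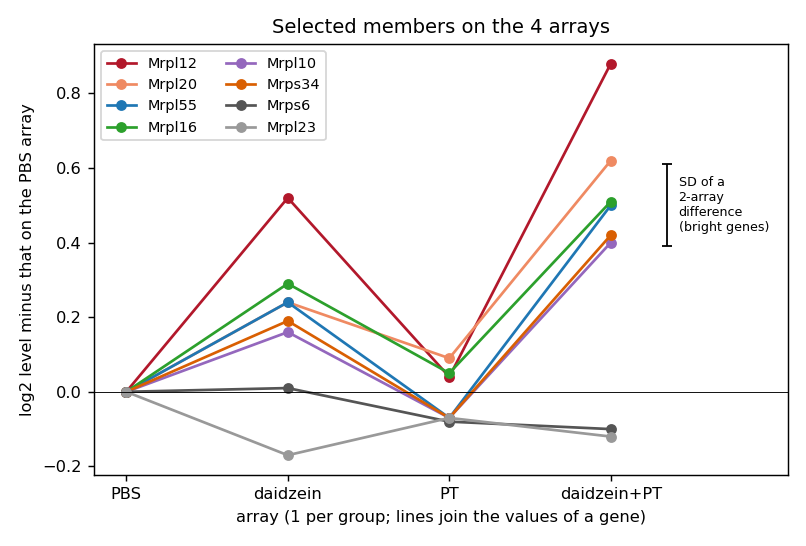
Level of 8 members on the 4 arrays minus their level on the PBS array (log2, vertical axis), with 1 point per gene and array and lines joining the points of a gene; the bar is 1 SD either side of a difference of 2 arrays for bright genes. Mrpl12 reaches 0.88 on daidzein+PT, and Mrps6 and Mrpl23 end at -0.10 and -0.12.

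Second probes gave a further reading of the same RNA. In 24 members more than 1 probe was well above background, and in 20 of them all probes had the same sign for both agents over PBS. Over the 28 dimmer probes the median was 0.20, with 22 above 0 and 11 at 1.2-fold. The highest members with both agents, Mrpl12, Mrpl20, Mrpl18, Mrpl16, Mrpl55 and Mrpl51, each had 1 probe with 1 spot and so no second reading. The probes of a gene differed by a median of 0.07 and by 0.65 at most, in Mrpl39, whose dimmer probe was at -0.41 and its brighter one at 0.24. For 3 members, Mrpl34, Mrpl50 and Mrps35, each array held 10 replicate spots of the probe, and the SD between these spots was 0.08 at most.

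Genes that act with the mitochondrial ribosome were set beside its proteins. With both agents over PBS the median was 0.26 for 7 ribosomal proteins under other symbols (4 at 1.2-fold), from Chchd1 at 0.00 to Ptcd3 at 0.37. The 13 translation factors had a median of 0.28, and all 13 were above 0. Among them were Taco1 (0.64), the activator of Cox1 translation, Gfm1 (0.63) and Tufm (0.52), the elongation factors, and Mtrf1l was lowest at 0.07. The 16 mitochondrial aminoacyl-tRNA synthetases had a median of 0.20 and 7 at 1.2-fold, and Wars2 was lowest at -0.31.

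Factors for assembly and rRNA modification had a lower median of 0.11 (7 of 20 at 1.2-fold), from Rpusd4 at -0.18 to Tfb1m, which methylates the small-subunit rRNA, at 0.51. The 8 genes of mitochondrial DNA transcription and replication had a median of 0.06, with Tfb2m at 0.64, Tfam at 0.00 and Top1mt at -0.11. Regulators of mitochondrial biogenesis had a median of -0.07 over 10 genes. The coactivator Ppargc1b was at 1.48 (levels of -4.01, -2.76, -3.88 and -2.53 on PBS, daidzein, PT and daidzein+PT) and its partner Esrra at 0.62, while Ppargc1a was at -0.27 and Pprc1 at -0.51.

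The list for mitochondrial protein import, which also counts the chaperones Hspd1 and Hspe1, had a median of 0.27 (12 of 21 at 1.2-fold). It ran from Hspa9 at -0.09 to Hspd1 at 0.47. The 75 nuclear subunits of the respiratory chain and ATP synthase had a median of 0.44 with 65 at 1.2-fold, from Atp5g2 at -0.03 to Uqcrfs1 at 1.13. The 79 cytosolic ribosomal proteins had a median of -0.09, with 17 above 0, Rpl4 highest at 0.32 and Rps19 lowest at -0.28. With daidzein alone the medians were 0.21 for the respiratory chain and ATP synthase, 0.09 for the mitochondrial ribosomal proteins and -0.16 for the cytosolic ones, and with PT alone 0.01, -0.04 and -0.08.

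**Figure D5:**
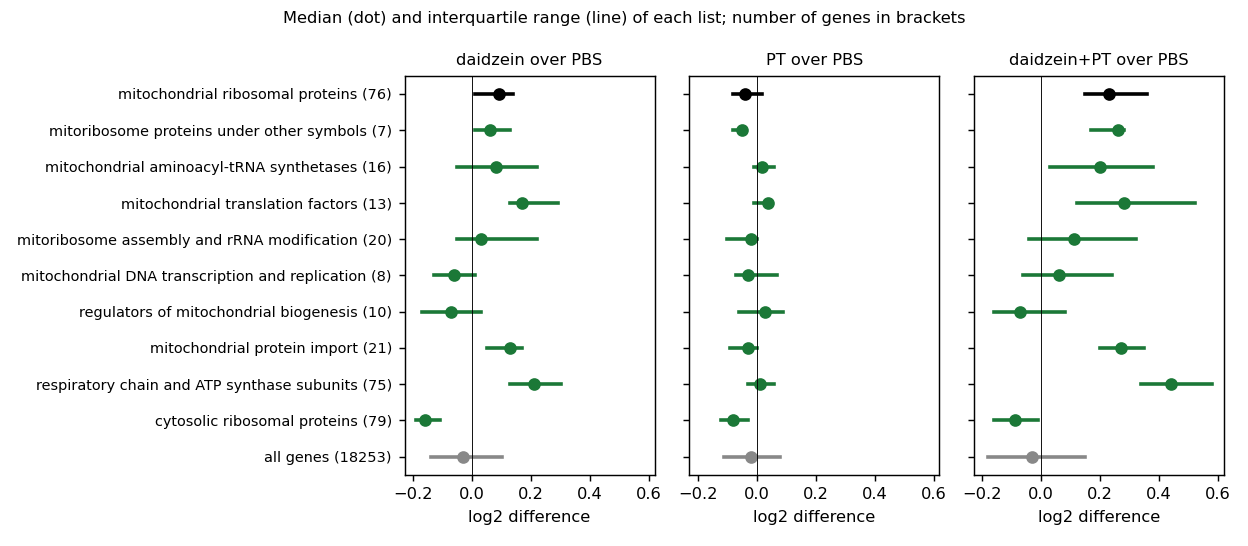
Median (dot) and interquartile range (line) of the log2 difference (horizontal axis) for the mitochondrial ribosomal proteins, 9 related lists and all genes, with 1 panel each for daidzein, PT and daidzein+PT over PBS. With both agents the medians run from 0.44 for the respiratory chain and ATP synthase to -0.09 for the cytosolic ribosomal proteins.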

How the data were processed

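RNA of 3T3-L1 adipocytes was hybridized to 1 single-colour Agilent array per group, per the labels. The deposited scanner files hold a background-subtracted spot intensity on a linear scale, written by Agilent Feature Extraction, with flags for spots well above background, per the file headers. The headers give version 10.7.1.1 and the submitters' processing notes 9.5.1.1. A deposited series table of intensity values was used as an alternative, and its between-array normalization is not given in the sources used here. Control and outlier spots were dropped, log2 was taken, the array's 75th percentile was subtracted, and spots of a probe were averaged. A gene took its brightest probe, which had to be well above background on all 4 arrays. With 1 array per group the comparisons are counts and medians with no test. An additive fit of daidzein and PT (limma 3.58.1 in R 4.3.3, lmFit, eBayes with trend, Benjamini-Hochberg) ran over 18253 genes. A printed p-value tests the main effect of daidzein or PT, with the departure from additivity between these 4 arrays taken as error. Probe positions are on mm9, as in the files; promoters are RefSeq's on GRCm38.p6, and the first start site listed for a gene was used. The genes named are the 6 most extreme in each direction for daidzein, PT (both pairs of the same sign) and daidzein+PT over PBS, the 3 most extreme interactions each way, Mrpl10, Mrpl12, the Mrps18 genes, and the highest and lowest of each related list; others were named for their role, and 1 item the rule picks is not reported here. The members and lists were chosen with earlier results of these data known. The alternatives were normexp background correction (offset 50), quantile, median, spike-in and cyclic loess scaling, the mean over probes, no filter on dim probes, the series table and limma without the intensity trend. The number of arrays limits the precision. Python 3.11.15 was used.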

Additional observations from a re-analysis of the deposited data

Results flagged for a closer look

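The PT difference of the mitochondrial ribosomal proteins lay on opposite sides of 0 in its 2 pairs, with a median of -0.04 without daidzein and 0.17 with it. The same held for 7 mitochondrial ribosomal proteins under other symbols (-0.05 and 0.13), for assembly and rRNA modification (-0.02 and 0.06), for mitochondrial DNA transcription and replication (-0.03 and 0.18), for protein import (-0.03 and 0.16) and for the cytosolic ribosomal proteins (-0.08 and 0.05). The daidzein difference did so for mitochondrial DNA transcription and replication alone among these lists, with -0.06 without PT and 0.05 with it. With 1 array per group the difference between the pairs was not tested. The median over all genes was -0.02 for PT without daidzein and 0.01 with it. With spike-in scaling the members' median without daidzein was 0.10, so that the opposite signs depend on the scaling.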

How the results depend on the processing

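Of 61 results, 59 were recomputed under 8 alternatives and the 2 counts of the additive fit under 9. In all, 238 of the values that answer a comparison stayed close to the reported one and 28 moved. Of the values of single genes, 222 stayed and 2 moved, Mrpl47 to 0.20 and Mrps14 to 0.03 with the mean over probes. Close meant within 0.11 for a median, within its own spread for a gene and within a fixed ratio for a count. A turn of direction was looked for only in medians and genes at 1.2-fold or more, and 0 turned. Among the smaller medians that moved, PT over PBS changed sign from -0.04 to 0.10 with spike-in scaling. That of regulators with both agents went from -0.07 to 0.06 with the mean over probes. Spike-in scaling gave 73 members above PBS with PT and a median of 0.10. It gave 3 members at 1.2-fold higher with PT, 51 with both agents over PBS, 28 for PT added to daidzein and 22 for daidzein added to PT, and 9 called for daidzein. Relative to the median of all genes, the members with both agents over PBS stood at 0.26 under the reported scaling. Spike-in scaling shifts all genes of an array by the same amount and so cannot change this value. It was 0.27 with quantile scaling, 0.26 after cyclic loess and 0.13 with no filter on dim probes. In that last setting the median of all 34795 genes was 0.1. Cyclic loess gave 41 members above PBS with PT, and 5 at 1.2-fold higher with daidzein, where normexp gave 4. For daidzein added to PT, 27 reached 1.2-fold with quantile scaling and 28 with the deposited series values. The mean over probes gave 1 member at 1.2-fold higher with PT, 1 lower with PT and 1 lower with daidzein, 19 called for daidzein, and medians with both agents of 0.15 for ribosomal proteins under other symbols and 0.06 for regulators. For daidzein, 14 members were called with quantile scaling, 16 with the deposited series values and 0 by limma without the intensity trend (unadjusted p under 0.05, 16). For PT limma called 0 members with each alternative except spike-in scaling and no filter on dim probes, which called 1 each, Mrpl20 and Mrpl18 (unadjusted p under 0.05, 51 and 13). The cause of these changes was not tested. Calls over all genes ran from 3.34% to 18.5% for daidzein. No paired analysis was possible because each group has 1 array and so no replicate numbers to pair. Every member was well above background on all 4 arrays, but differences under 0.11 (60 members in the brightest group) or 0.14 (16 in the middle group) lie within the spread of 2 arrays.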
